A study of Gallus gallus with 20 samples.

Results

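Enzymes that break down leucine, isoleucine, valine and lysine were followed in chicken breast muscle and liver under a shortage of methionine. The 8 genes were AASS, BCKDHB, DBT, BCAT1, IVD, MCCC1, HIBCH and PCCA. They were found by gene symbol among the 17108 genes of the deposited tables, and each symbol matched 1 gene identifier. The birds were Ross 708 broilers, a fast-growing meat strain, all of them male and sampled on post-hatch day 35. The 4 groups were breast muscle on the control diet, breast muscle on the deficient diet, liver on the control diet and liver on the deficient diet, with 5 libraries in each and 20 in all. The control diet contained L-methionine and the other diet was deficient in it, and the diets were fed from week 3 to week 5 of age. The labels describe 5 control and 5 treated birds, so the libraries of a tissue were taken as separate birds. If these are all the birds, each gave both tissues, but the labels do not say which breast and liver libraries share a bird. The main fits over both tissues treat the 20 libraries as independent. The study examined mRNA levels in both tissues under the diets. A whole tissue was measured, so fewer cells of a type and less RNA per cell cannot be told apart.

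Branched-chain amino acids share their opening steps. An aminotransferase, cytosolic BCAT1 or a mitochondrial relative, removes the amino group, and the branched-chain keto acid dehydrogenase in the mitochondrial matrix commits the carbon skeleton to oxidation. In mammals muscle is known for the transfer of the amino group and liver for oxidation of the keto acids. After the dehydrogenase the routes separate, with IVD and MCCC1 on the leucine route, HIBCH on the valine route and PCCA at the propionate step where valine, isoleucine and methionine carbon meet. Lysine enters its own mitochondrial route through AASS.

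The libraries held between 1.40 and 2.75 gigabases assigned to transcripts, estimated from transcript coverage and length, and between 9143 and 10589 genes at an FPKM of at least 1. In breast muscle the diets did not overlap in this number of genes, with 10102 to 10589 in controls and 9143 to 9962 in deficient libraries. In liver they did, with 9798 to 10125 and 9805 to 10105. The 5 summed myocyte markers lay between 22160 and 68050 scaled FPKM in breast muscle and between 22.6 and 34.8 in liver, except liver control 1 at 236.7. The 14 summed hepatocyte markers lay between 29750 and 56550 in liver and between 695 and 3181 in breast muscle, and ALB was listed at 0 in liver as a failed estimate. Mitochondrially encoded genes made up 14.1% to 22.9% of the summed FPKM of a library, except liver control 4 at 63.1% and liver deficient 1 at 36.0%.

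The genes are given in galGal4 coordinates as the files list them. AASS (ENSGALG00000008953) lies on chromosome 1 from 22638791 to 22669004, BCAT1 (ENSGALG00000013177) on chromosome 1 from 65511652 to 65570645, and PCCA (ENSGALG00000016872) on chromosome 1 from 143233043 to 143503719. BCKDHB (ENSGALG00000015866) spans 78457902 to 78570667 of chromosome 3. DBT (ENSGALG00000005280) spans 10851933 to 10864943 of chromosome 8. IVD (ENSGALG00000004686) spans 797511 to 813243 of chromosome 5, HIBCH (ENSGALG00000002310) 135531 to 168113 of chromosome 7 and MCCC1 (ENSGALG00000008785) 15864983 to 15880897 of chromosome 9. Each gene had 1 transcript model, from 1226 nt for BCAT1 to 5411 nt for AASS, so the values describe whole genes and not isoforms. The mean read coverage of a model ranged from 8.32 for PCCA in its shallowest library to 325 for HIBCH in its deepest. The authors' interval around an FPKM value had a median width to either side of 5.51% of the value for HIBCH and 13.9% for PCCA, the least and most uncertain of the 8.

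In breast muscle 6 of the 8 genes rose on the deficient diet and none fell. The rises were largest for AASS, the entry enzyme of lysine breakdown, at 1.93-fold, and for BCKDHB, a subunit of the dehydrogenase that commits branched-chain carbon, at 1.90-fold. IVD, HIBCH, DBT and MCCC1 rose by 1.48-fold, 1.40-fold, 1.31-fold and 1.18-fold. BCAT1 and PCCA did not pass the test. Levels are FPKM after joint scaling of all libraries, and log2 differences and folds are deficient minus control on the log2(scaled FPKM + 1) scale after scaling within the tissue. A gene was called at a limma adjusted p under 0.05 over all 10173 genes tested, of which 28.1% were called, 14.2% higher and 13.9% lower. For 5 of the 8 genes every deficient library lay above every control library, which held for 9.93% of all genes. The median log2 difference was 0.44 over the 8 genes and 0.02 over all genes. The 8 genes were chosen with earlier results of these data known, so these counts and medians are not an independent test of the list.

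**Figure D1:**
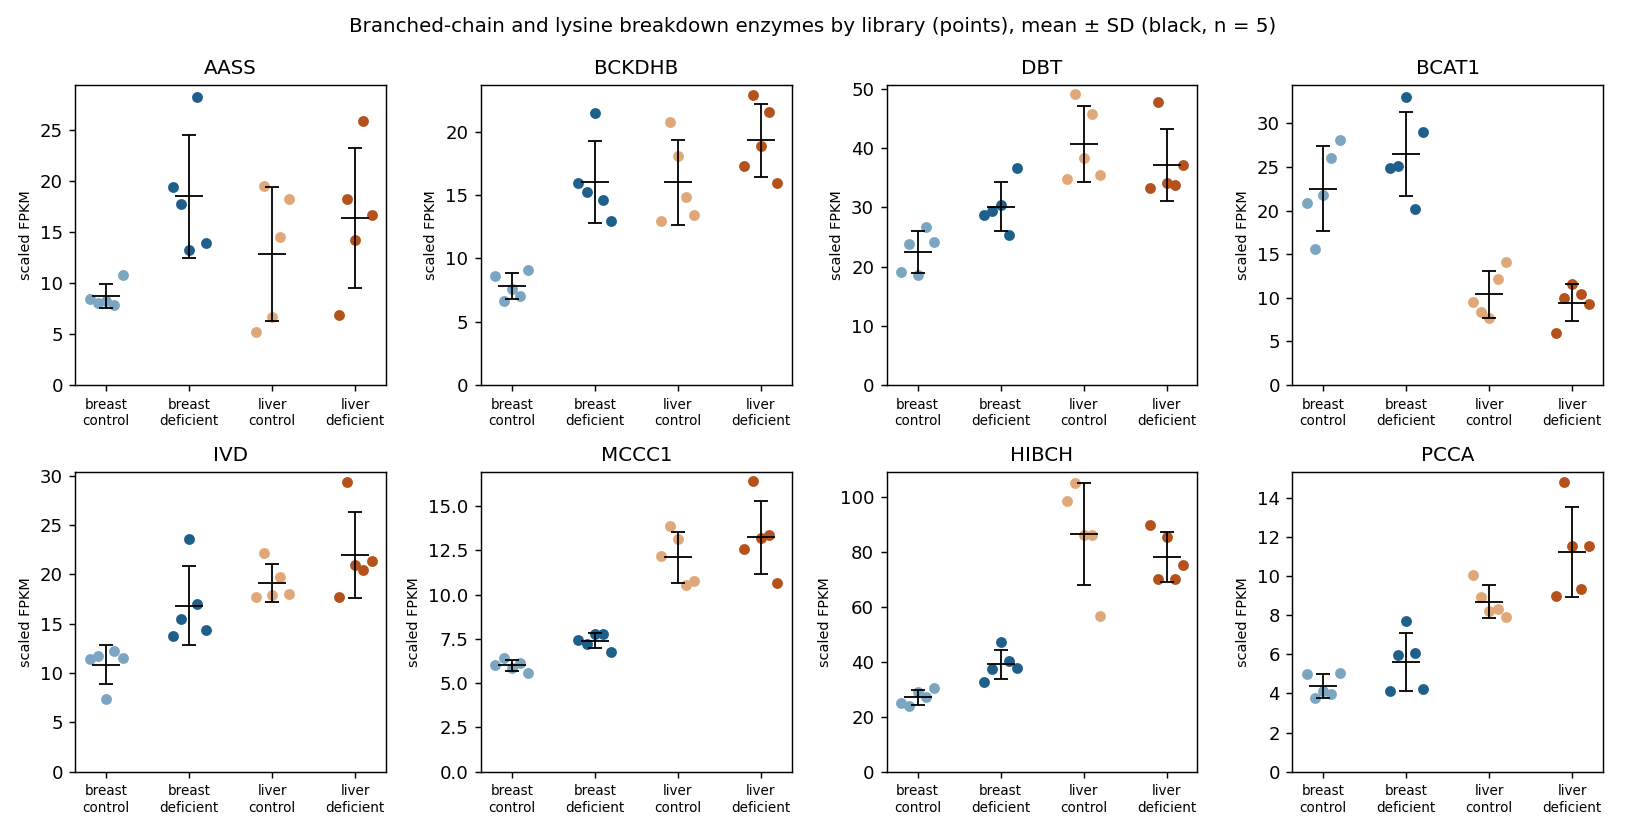
Scaled FPKM of the 8 genes (vertical axes, from 0) in each library (points) of the 4 groups (horizontal axes), with the mean and SD of 5 libraries in black. In breast muscle the deficient libraries of AASS lie between 13.2 and 28.2 and the controls between 7.88 and 10.8, while the AASS libraries of liver spread from 5.23 to 25.8.

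AASS joins lysine to oxoglutarate and then splits the product, saccharopine. Its level in the control breast libraries 1 to 5 was 8.48, 8.05, 8.27, 7.88 and 10.8 scaled FPKM. In the deficient breast libraries 1 to 5 it was 19.4, 17.7, 13.2, 28.2 and 13.9. The lowest deficient library lay above the highest control, and the deficient libraries also spread more widely, with coefficients of variation of 32.5% against 13.6%. The means were 8.69 ± 1.18 and 18.5 ± 6.02 (SD, n = 5 each), a log2 difference of 0.95 (SE 0.18, limma adjusted p = 0.00451).

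BCKDHB encodes the beta subunit of E1, the decarboxylating component of the branched-chain keto acid dehydrogenase. Its control breast libraries measured 8.59, 6.67, 7.55, 7.06 and 9.09 scaled FPKM and its deficient libraries 16.0, 15.2, 21.5, 14.6 and 13.0. The groups were well apart, with deficient library 3 the highest. The means were 7.79 ± 1.02 and 16.1 ± 3.22 (SD, n = 5 each), a log2 difference of 0.93 (SE 0.13, limma adjusted p = 0.00162). AASS and BCKDHB were called whichever library was left out, with log2 differences of at least 0.80 for AASS and 0.83 for BCKDHB.

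DBT encodes E2, the lipoylated core of the same complex. Its control breast libraries measured 19.0, 23.8, 18.6, 26.7 and 24.2 scaled FPKM and its deficient libraries 28.6, 29.4, 30.4, 25.3 and 36.6. The groups overlapped, since deficient library 4 lay below control library 4. The means were 22.5 ± 3.52 and 30.1 ± 4.13 (SD, n = 5 each), with a log2 difference of 0.39 (SE 0.13, limma adjusted p = 0.0403). This call ended without control library 1, 2 or 3 (adjusted p = 0.0891, 0.0654 and 0.0882) and without deficient library 1, 2, 3 or 5 (adjusted p = 0.0559, 0.0619, 0.0688 and 0.0678). BCAT1, the cytosolic aminotransferase, ranged from 15.6 to 28.1 in controls and from 20.2 to 33.0 in deficient breast muscle. Its log2 difference was 0.21 with a 95% interval from -0.16 to 0.59 (limma adjusted p = 0.368).

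On the leucine route, IVD oxidises isovaleryl-CoA. Its control breast libraries measured 11.4, 11.7, 7.41, 12.3 and 11.5 scaled FPKM and its deficient libraries 13.7, 15.5, 23.6, 17.0 and 14.4. All deficient libraries lay above all controls, and control library 3 and deficient library 3 stood apart from their own groups. The log2 difference was 0.56 (SE 0.16, n = 5 each, limma adjusted p = 0.0249), and without deficient library 4 the call ended (adjusted p = 0.0521). MCCC1 encodes the biotin-carrying alpha subunit of methylcrotonyl-CoA carboxylase, the next enzyme. It measured 6.0, 6.45, 5.85, 6.14 and 5.59 in controls and 7.46, 7.23, 7.75, 7.80 and 6.77 in deficient libraries. The difference was small and the groups tight, with coefficients of variation of 5.33% and 5.69%, and they did not overlap. The log2 difference was 0.24 (SE 0.07, n = 5 each, limma adjusted p = 0.0204).

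HIBCH removes coenzyme A from 3-hydroxyisobutyryl-CoA on the valine route. Its control breast libraries measured 25.1, 23.7, 29.0, 27.1 and 30.5 scaled FPKM and its deficient libraries 32.5, 37.4, 47.1, 40.4 and 37.7. The groups did not overlap, and the means were 27.1 ± 2.78 and 39.0 ± 5.35 (SD, n = 5 each). The log2 difference was 0.49 (SE 0.11, limma adjusted p = 0.0103). PCCA encodes the biotin-carrying alpha subunit of propionyl-CoA carboxylase. It ranged from 3.78 to 5.04 in controls and from 4.12 to 7.72 in deficient libraries, so the groups overlapped. Its log2 difference was 0.26 with a 95% interval from -0.06 to 0.58 (limma adjusted p = 0.209).

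The size of these differences moved with the scaling between libraries. The divisors within breast muscle lay between 1.03 and 1.28 in controls and between 0.772 and 0.994 in deficient libraries, so the diets did not overlap in this value. Without scaling the median of all genes was -0.25, and all 8 genes lay above it, as they did under each scaling tried. AASS and BCKDHB were still called without scaling, at 0.64 and 0.62 (limma adjusted p = 0.0187 and 0.00205). The other 4 calls were lost, with log2 differences of 0.25 for IVD, 0.16 for HIBCH, 0.07 for DBT and -0.05 for MCCC1 (adjusted p = 0.201, 0.124, 0.756 and 0.725). BCAT1 and PCCA were at -0.11 and -0.02 without scaling. DBT was not called under upper-quartile scaling (adjusted p = 0.0619) or quantile normalization (adjusted p = 0.118) either. Its call was also lost under median ratios over genes at 1 FPKM or more (limma adjusted p = 0.0521). Apart from scaling, the DBT call was lost without a filter and with library weights (limma adjusted p = 0.0505 and 0.0623). It was lost too with replicate numbers as a block, which joins different birds across the diets (limma adjusted p = 0.0733).

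**Figure D2:**
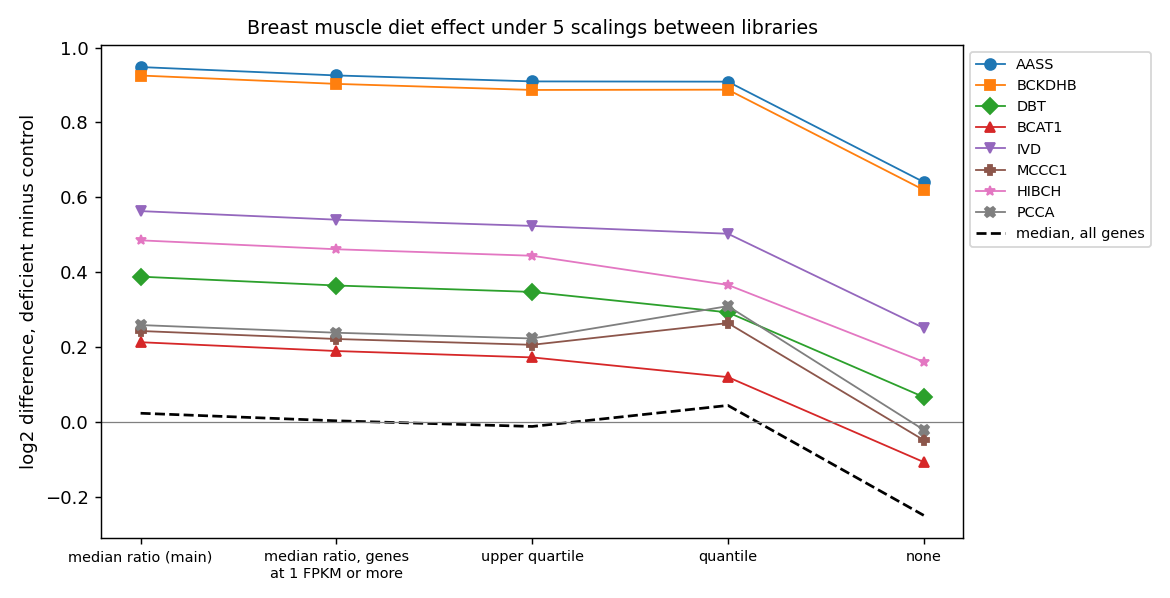
Log2 difference, deficient minus control, in breast muscle (vertical axis) for the 8 genes and for the median of all genes (dashed) under 5 scalings between libraries (horizontal axis). AASS and BCKDHB stay uppermost, and without scaling the median of all genes is at -0.25 and BCAT1, MCCC1 and PCCA lie below 0.

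Other RNA of the muscle samples also differed between the diets. The summed myocyte markers lay between 22160 and 36170 scaled FPKM in control breast libraries and between 40080 and 68050 in deficient ones, and 4 of 5 tested markers rose. Of 12 myocyte markers listed, 6 were found and 5 summed. The 9 summed macrophage markers lay between 1667 and 2027 in controls and between 942 and 1084 in deficient libraries, and 8 of 9 fell. The 6 fibroblast markers lay between 1723 and 2326 and between 1091 and 1796, with 3 falls. The 14 hepatocyte markers lay between 1864 and 3181 and between 695 and 2609. Only 5 of the 15 hepatocyte markers found were tested in breast muscle, and 2 of them fell. Of the 5 slow fibre markers, 3 were tested, 1 rose and 2 fell, with sums between 2857 and 6924 and between 4608 and 11500. Over all genes tested in breast muscle 14.2% were called higher and 13.9% lower. No tested adipocyte, endothelial or erythroid marker was called. The part of these shifts in the enzyme differences was not tested.

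The rest of the pathways was read from 35 further genes, of which 27 were found by symbol. In breast muscle 12 of 26 tested rose and 1 fell, where 14.2% of all genes were called higher and 13.9% lower. Their median log2 difference was 0.32, against 0.02 for all genes. The further genes too were chosen with earlier results of the data known. Rises came from the shared steps and from the leucine, isoleucine, valine, propionate and lysine routes. In the shared dehydrogenase DLD, its E3 subunit, averaged 35.9 ± 5.75 scaled FPKM in controls and 65.0 ± 14.3 in deficient libraries (SD, n = 5 each), a log2 difference of 0.81 (limma adjusted p = 0.00575). PPM1K, the phosphatase that activates the complex, was at 0.01 with a 95% interval from -0.42 to 0.45. MCCC2, the partner subunit of MCCC1, rose by 0.58 (limma adjusted p = 0.00844). AUH and OXCT1, further genes of the leucine route, were not called, at 0.21 and 0.41 (limma adjusted p = 0.116 and 0.0535). OXCT1 lay near the threshold, and was called in 2 of 10 fits with a library left out and in 3 of 13 others.

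On the isoleucine route ACADSB, the short branched-chain acyl-CoA dehydrogenase, rose by 0.84 (limma adjusted p = 0.0029). On the valine route HIBADH, which follows HIBCH, averaged 44.7 ± 12.2 scaled FPKM in controls and 92.3 ± 27.9 in deficient libraries (SD, n = 5 each), a log2 difference of 1.01 (limma adjusted p = 0.0139). ALDH6A1, the next enzyme, rose by 0.61 (adjusted p = 0.0324), and ECHS1, a hydratase of both routes, by 0.38 (adjusted p = 0.0381). At the propionate step PCCB, the partner of PCCA, rose by 0.35 (adjusted p = 0.00868), the epimerase MCEE by 0.62 (adjusted p = 0.0217) and the mutase MUT by 0.62 (adjusted p = 0.0262). On the lysine route ALDH7A1, the aldehyde dehydrogenase after AASS, rose by 0.45 (adjusted p = 0.0164) and DHTKD1, the oxoadipate dehydrogenase, by 0.48 (adjusted p = 0.0142). LIAS, which makes the lipoate cofactor that E2 carries, rose by 0.30 (adjusted p = 0.0287).

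CRYM, a thyroid hormone binding protein that in mammals also reduces ketimines of the pipecolate side route of lysine, was the 1 called fall, at -0.52 (limma adjusted p = 0.0326). The calls of ECHS1, ALDH6A1, MUT, LIAS and CRYM each ended without any of 5 to 8 libraries. Breast control 2 was among them each time (adjusted p = 0.0782, 0.0735, 0.0559, 0.0739 and 0.0714). Without scaling 3 of the 12 rises, those of DLD, ACADSB and HIBADH, were called, together with the fall of CRYM.

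**Figure D3:**
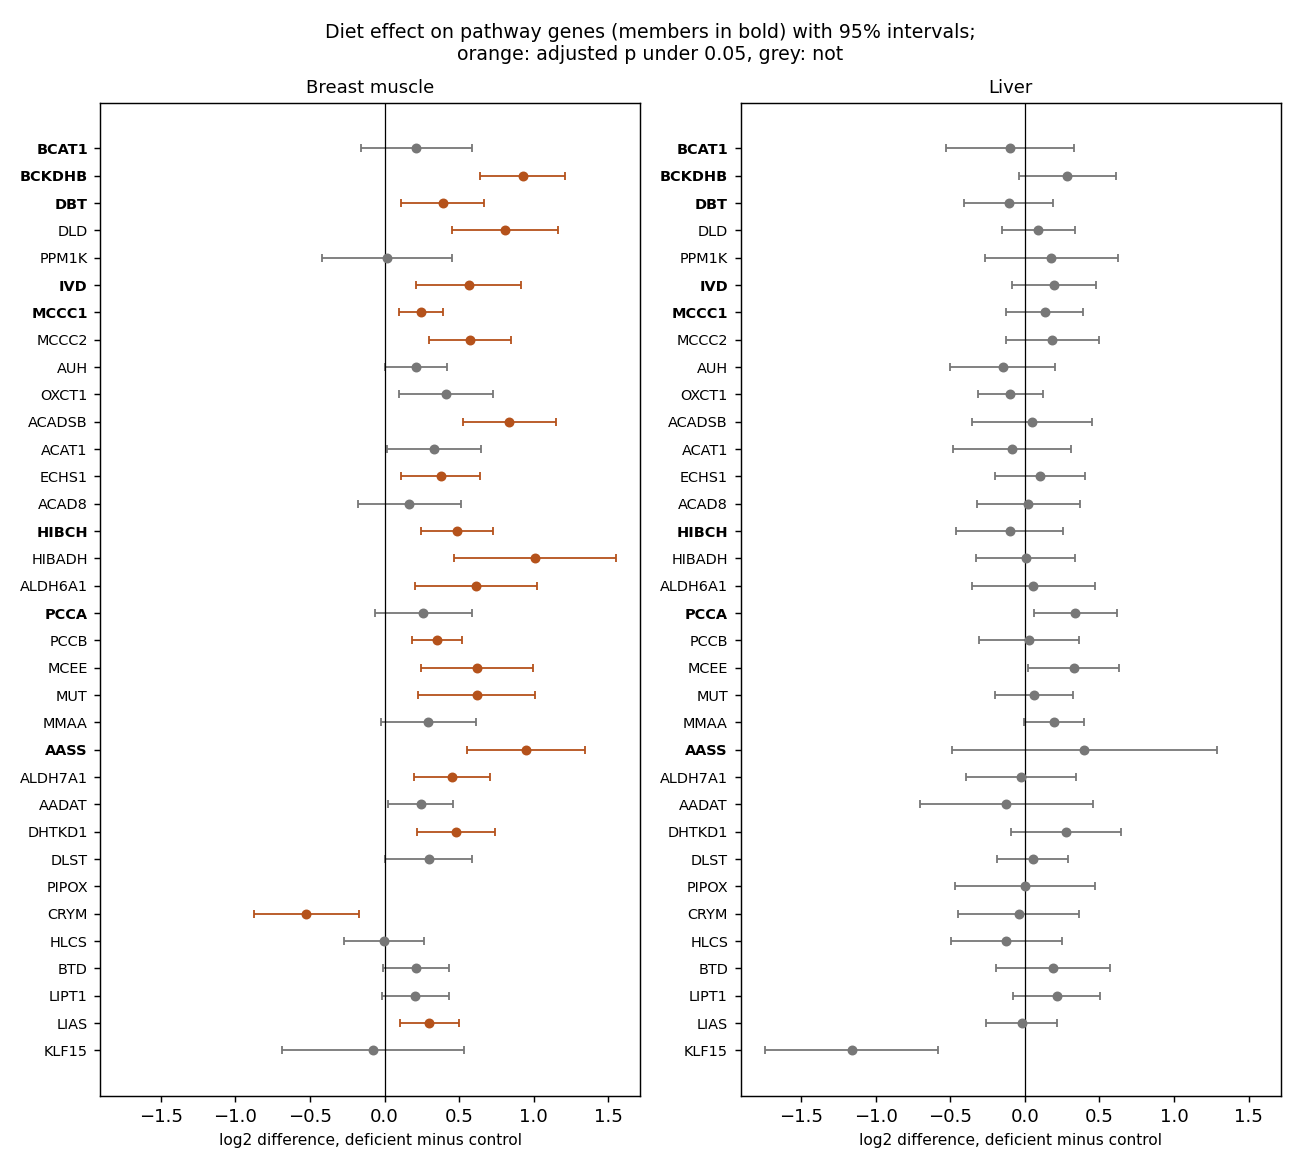
Log2 difference, deficient minus control, with 95% intervals (horizontal axes) for the 8 genes (bold) and 26 other pathway genes in breast muscle (left) and liver (right). Orange marks an adjusted p under 0.05, which 19 genes reach in breast muscle and 0 in liver.

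In liver none of the 8 genes and none of the 27 other pathway genes was called, and neither was any of the 10185 genes tested (0%). At an unadjusted p under 0.05 there were 849 genes (8.34%), among them 1 of the 8, PCCA, and 2 of the 27, MCEE and KLF15. PCCA measured 10.1, 8.92, 8.22, 8.31 and 7.90 scaled FPKM in liver controls 1 to 5 and 8.97, 14.8, 11.5, 9.34 and 11.5 in deficient libraries. The groups overlapped, and the log2 difference was 0.34 with a 95% interval from 0.06 to 0.62 (limma unadjusted p = 0.0212, adjusted p = 0.477). MCEE was at 0.33 (unadjusted p = 0.0386, adjusted p = 0.568).

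BCKDHB measured 12.9, 20.8, 18.1, 14.9 and 13.4 scaled FPKM in liver controls and 17.3, 22.9, 18.9, 21.6 and 16.0 in deficient libraries, and the groups overlapped. Its log2 difference was 0.28 with a 95% interval from -0.04 to 0.61 (limma adjusted p = 0.661). AASS was the most variable of the 8 genes in liver. It measured 5.23, 19.5, 6.63, 14.5 and 18.3 in controls and 6.90, 18.2, 14.2, 25.8 and 16.7 in deficient libraries, with coefficients of variation of 51.3% and 41.8%. Low and high libraries occurred on both diets, and the log2 difference of 0.40 had a 95% interval from -0.49 to 1.29.

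The liver log2 differences of the remaining genes were 0.20 for IVD, 0.13 for MCCC1, -0.11 for DBT, -0.10 for BCAT1 and -0.10 for HIBCH, with adjusted p between 0.759 and 0.933. Their 95% intervals were from -0.08 to 0.48, from -0.13 to 0.39, from -0.41 to 0.19, from -0.53 to 0.33 and from -0.46 to 0.26. A rise of the size seen in breast muscle lies outside the liver interval for HIBCH (0.49), DBT (0.39) and IVD (0.56), and for BCKDHB (0.93), and inside it for AASS, MCCC1, BCAT1 and PCCA. This takes the breast value as free of error and is not a test between the tissues. The direct test, given next, called 0 of the 8.

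Whether the diet effect differed between the tissues was tested directly, as the liver effect minus the breast effect. The 20 libraries were treated as independent, and no fit of this difference joined the tissues by replicate number. Of the 8 genes 0 were called, where 9.22% of 9142 genes tested were. At an unadjusted p under 0.05 there were 3 of the 8, BCKDHB, HIBCH and DBT, against 25.2% of all genes. BCKDHB was at -0.64 (SE 0.20, limma adjusted p = 0.0503), HIBCH at -0.59 (SE 0.20, adjusted p = 0.0639) and DBT at -0.50 (SE 0.18, adjusted p = 0.0949). All 3 were thus negative, with the breast effect the higher one. AASS was at -0.55 with a 95% interval from -1.51 to 0.42, and PCCA at 0.08 with one from -0.34 to 0.49. IVD, BCAT1 and MCCC1 were at -0.37, -0.32 and -0.11 (adjusted p = 0.286, 0.497 and 0.652).

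BCKDHB lay at the threshold, and its adjusted p ranged from 0.0287 to 0.103 when 1 library was left out. It was called without breast control 5 (adjusted p = 0.0435), breast deficient 5 (adjusted p = 0.0287), liver control 1 (adjusted p = 0.0382), liver control 5 (adjusted p = 0.041) or liver deficient 2 (adjusted p = 0.0424). HIBCH was called without breast deficient 1 (adjusted p = 0.049) or liver control 5 (adjusted p = 0.00844), and DBT without liver deficient 2 (adjusted p = 0.046). Of the other pathway genes 3 of 26 were called, a share near that of all genes, namely DLD at -0.72, ACADSB at -0.79 and HIBADH at -1.0 (limma adjusted p = 0.0287, 0.0445 and 0.0433). Their liver differences were 0.09, 0.05 and 0.01. These calls were lost without breast control 2 (adjusted p = 0.0627, 0.093 and 0.0791), and without 4, 13 and 12 other libraries in turn. They were also lost without scaling (-0.34, -0.44 and -0.62, adjusted p = 0.134, 0.139 and 0.0854).

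Transcripts of most of these enzymes were higher in liver than in breast muscle on the control diet. There 6 of the 8 genes were higher in liver and 1, BCAT1, was lower, and on the deficient diet 4 were higher and BCAT1 was again lower. Of all 10771 genes tested 69.5% were called on the control diet, 35.7% higher in liver, and 73.5% on the deficient diet, 37.3% higher in liver. A difference between the tissues was thus common, and the counts of the 8 genes are read against it. The diets share no library, and both comparisons come from 1 fit with a shared estimate of the spread.

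HIBCH showed the widest gap of the 8 on the control diet, with 27.1 ± 2.78 scaled FPKM in control breast muscle and 86.4 ± 18.6 in control liver (SD, n = 5 each). Its log2 difference, liver minus breast, was 1.61 on the control diet and 0.98 on the deficient diet (limma adjusted p = 3.72e-09 and 3.34e-06). BCKDHB went from 0.94 (adjusted p = 7.47e-06) to 0.26 (adjusted p = 0.105), and its deficient breast mean of 16.1 ± 3.22 lay beside the control liver mean of 16.0 ± 3.35. DBT went from 0.83 (adjusted p = 1.47e-05) to 0.29 (adjusted p = 0.053) and IVD from 0.78 (adjusted p = 0.000136) to 0.37 (adjusted p = 0.033). A change of the tissue gap with diet is what the direct test above examined, and it called none of the 8 genes. Without scaling BCKDHB and DBT were called on the deficient diet too, at 0.45 and 0.49 (adjusted p = 0.00339 and 0.00417). BCKDHB was also called with library weights (adjusted p = 0.0362) and without breast deficient 3 (adjusted p = 0.0234). DBT lay at the threshold, and was also called with quantile normalization (adjusted p = 0.0483), with a filter at 5 FPKM (adjusted p = 0.0498) and without liver control 4 and liver deficient 1 together (adjusted p = 0.0451). It was called as well without breast deficient 5 (adjusted p = 0.0214), liver control 2 (adjusted p = 0.0449), liver deficient 1 (adjusted p = 0.0446) or liver deficient 4 (adjusted p = 0.0493). The IVD call on the deficient diet ended without breast deficient 1, 2 or 5 (adjusted p = 0.0886, 0.0672 and 0.0785) or liver deficient 2 (adjusted p = 0.108).

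The carboxylase subunits were higher in liver on both diets. MCCC1 was at 0.90 and 0.75 (limma adjusted p = 5.47e-08 and 5.81e-07) and PCCA at 0.85 and 0.89 (adjusted p = 2.52e-05 and 1.21e-05). BCAT1 was the exception in direction, with 22.5 ± 4.88 and 26.4 ± 4.84 scaled FPKM in breast muscle and 10.4 ± 2.69 and 9.45 ± 2.11 in liver (SD, n = 5 each). Its log2 differences were -1.05 and -1.40 (adjusted p = 5.03e-05 and 1.25e-06). All its breast libraries lay above all its liver libraries, a separation not counted over all genes. AASS did not pass on either diet, at 0.36 and -0.22 (adjusted p = 0.335 and 0.552).

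**Figure D4:**
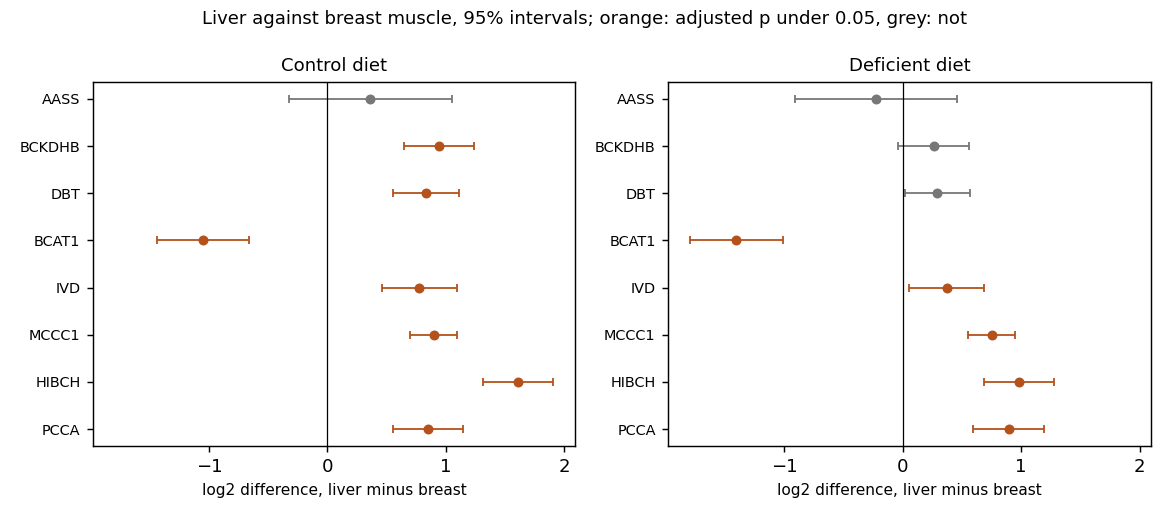
Log2 difference, liver minus breast muscle, with 95% intervals (horizontal axes) for the 8 genes on the control diet (left) and the deficient diet (right). BCAT1 lies at -1.05 and -1.40, opposite to the other called genes, and BCKDHB lies at 0.94 and 0.26.

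Read by level, the order of the groups differed between the genes. How many of all genes separate fully by tissue was not counted. For HIBCH, MCCC1 and PCCA both liver groups lay above both breast groups, and the diets within liver overlapped. For BCKDHB the control breast group lay lowest, and deficient breast muscle, control liver and deficient liver overlapped with each other. For DBT the order of the means was control breast, deficient breast, deficient liver and control liver, with overlap between deficient breast muscle and both liver groups. For IVD it was control breast, deficient breast, control liver and deficient liver, with overlap between the last 3. For BCAT1 liver lay lowest on both diets. For AASS the liver libraries, from 5.23 to 25.8, spanned the control breast group. They overlapped the deficient breast group, whose highest library was at 28.2.

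The other pathway genes showed a wider tissue contrast. Of 27 tested, 22 were higher in liver and 3 lower on the control diet, and 17 were higher and 4 lower on the deficient diet. Their median log2 difference was 1.32 and 0.97, against 0.84 and 0.33 for the 8 genes and 0.02 for all genes on both diets. ALDH7A1 was at 2.03 on the control diet and 1.51 on the deficient diet. MCCC2 was at 1.32 and 0.89, and PCCB at 1.34 and 0.98. DLD went from 0.86 (limma adjusted p = 1.71e-05) to 0.10 (adjusted p = 0.516), and PPM1K was lower in liver at -0.88 and -0.75. OXCT1, which lets tissues burn ketone bodies and was singled out after its values were seen, was lower in liver at -1.27 and -1.81.

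Partner subunits were compared inside each library, where the scaling cancels. The ratio of BCKDHB to DBT ranged from 0.265 to 0.451 in control breast muscle and from 0.354 to 0.707 in deficient breast muscle. In liver it ranged from 0.324 to 0.471 and from 0.431 to 0.639. The geometric means went from 0.348 to 0.530 in breast muscle and from 0.390 to 0.520 in liver, so both tissues moved the same way. The log2 differences were 0.61 and 0.41 (n = 5 each, two-sided exact permutation p = 0.0397 and 0.0159). After Benjamini-Hochberg adjustment over the 6 tests both had an exact permutation adjusted p = 0.0952, and neither passed.

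The ratio of MCCC1 to MCCC2 went from 0.888 to 0.689 in breast muscle, a log2 difference of -0.37 (n = 5 each, exact permutation p = 0.0476, adjusted p = 0.0952). In liver it was 0.653 and 0.631 (exact permutation p = 0.571, adjusted p = 0.686). The ratio of PCCA to PCCB was 0.309 and 0.295 in breast muscle (exact permutation p = 0.778, adjusted p = 0.778). In liver it was 0.232 in controls, all between 0.215 and 0.242, and 0.294 in deficient libraries, which spread from 0.197 to 0.406 (exact permutation p = 0.0952, adjusted p = 0.143). The smallest p that 252 labelings of 10 libraries allow is 0.00794. The adjusted p of BCKDHB to DBT in breast muscle without breast deficient 5, and of PCCA to PCCB in liver without liver deficient 1, was 0.0476 in each case, at 0.75 and 0.49 on the log2 scale.

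**Figure D5:**
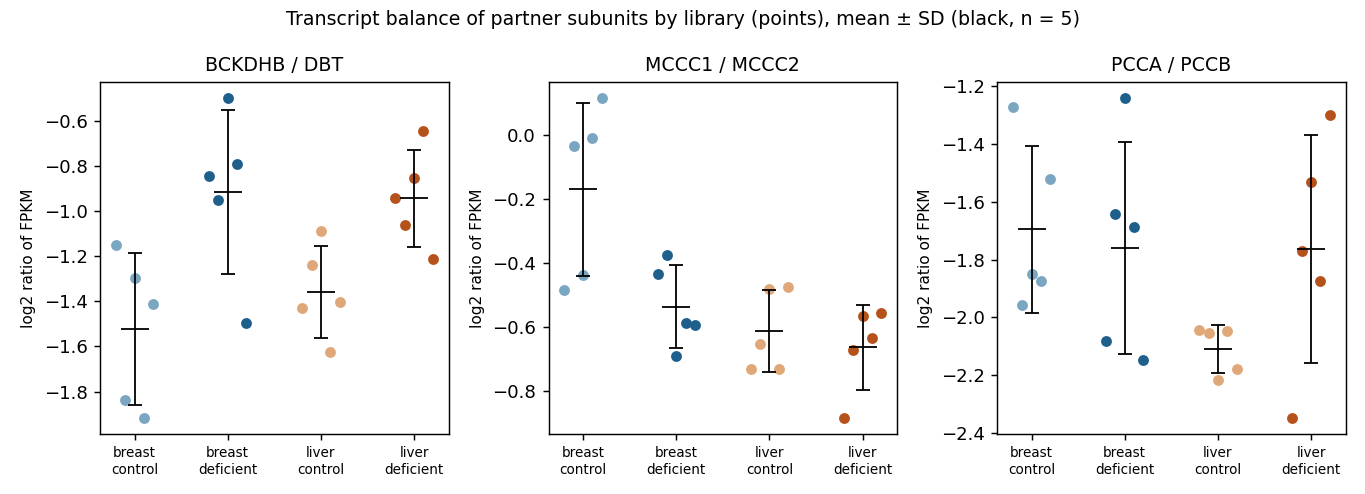
Log2 ratio of FPKM between partner subunits (vertical axes) in each library (points) of the 4 groups (horizontal axes), with the mean and SD of 5 libraries in black. The BCKDHB to DBT ratio has the higher mean on the deficient diet in both tissues, with overlapping groups, and control liver libraries are tightly placed for PCCA to PCCB.

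The 8 genes did not share 1 pattern over the 20 libraries. Likeness was measured as the root mean square difference of log2 values after each gene's mean was taken off, over 10188 genes, and it mixes tissue, diet and library. The closest pair was MCCC1 and PCCA at 0.22, then DBT and IVD at 0.23 and BCKDHB and IVD at 0.24. The farthest was BCAT1 and HIBCH at 1.32. AASS came no closer than 0.56 to any other of the 8, which was BCKDHB.

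Among all genes, DLD, the E3 subunit of the same complex, was the closest to BCKDHB at 0.19, followed by MLYCD at 0.21 and GCAT at 0.23. HIBCH was closest to PDHB, a pyruvate dehydrogenase subunit, at 0.18, then MMACHC, a cobalamin processing gene, at 0.18 and CISD1 at 0.19. For DBT they were TRMT1L (0.16), MTPAP (0.17) and PI4KA (0.20), and for IVD SELO (0.21), PEX14 (0.22) and EDF1 (0.23). MCCC1 lay nearest to PM5, SMPDL3B and ABHD13, each at 0.15, and PCCA to CPD (0.18), UBE4B (0.18) and TOR1AIP2 (0.19). BCAT1 lay nearest to MOBKL3 (0.24), KPNA4 (0.24) and ATP6V0C (0.25). AASS had the least close neighbours, PSMG2 (0.40), MAP1LC3A (0.43) and PSME4 (0.44), set against its own root mean square of 0.62 about its mean.

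Some libraries were high or low for several of the genes at once. Breast deficient 3, whose scaling divisor was the smallest at 0.772, was the highest of its group for 5 genes (BCKDHB, BCAT1, IVD, HIBCH and PCCA) and the lowest for AASS. As deposited, without scaling, it was the highest for 3. Breast control 5 was the highest of its group for 5 genes after scaling and for 1 as deposited. Liver control 2 was the highest for 6 after scaling and for 2 as deposited, and liver deficient 2 for 5 and 4. Liver control 1, the library with the high myocyte sum, was the lowest for 4 both ways, and liver deficient 1, with a high mitochondrial share, for 5 and 4.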

How the data were processed

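RNA libraries were made with the TruSeq kit, per the labels' protocols. The authors deposited FPKM per gene and per transcript in Cufflinks tracking tables for galGal4, with coverage, a signal of mean read depth, per the file headers. Cuffdiff 2.1.1, Cufflinks 2.1.1, Bowtie 1.0.0 and TopHat2 2.0.9 are named, with no role, in the submitters' processing notes. Read counts are not used here, so depth in reads is unknown. Failed estimates, listed at 0 for genes outside the pathways, were left out of the tissue concerned.

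Libraries were scaled by median ratios, taken to each gene's geometric mean and using genes above 0 throughout, within a tissue for diet effects and jointly for levels and tissue differences. Genes averaging a scaled FPKM of 1 or more were tested as log2(scaled FPKM + 1) in limma 3.58.1 (R 4.3.3), two-sided, with a mean-variance trend and Benjamini-Hochberg adjustment over all genes tested. The pseudocount of 1 understates changes of low genes. Subunit ratios were tested by exact permutation. The limma procedure was tested on simulated data.

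The 8 genes, the 35 further pathway genes and the marker lists were chosen with earlier results of these data known. The text names all 8 genes, further pathway genes called for diet or its tissue difference, a few preset partners, and the 3 genes nearest to each of the 8. BCKDHA, BCAT2, BCKDK, SLC25A44, HSD17B10, MMAB, GCDH and SUGCT were not found by symbol and are not analysed here. A further gene of the list counts in the totals and is not reported here. Alternatives covered scaling, pseudocount, filter, variance model, library weights, isoform sums, failed estimates, a replicate block and left-out libraries. A scaling over genes at 1 FPKM or more was chosen after seeing the data.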

Additional observations from a re-analysis of the deposited data

Results flagged for a closer look

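Of 32 sets of 5 libraries, 8 genes in 4 groups, 3 held a library far from the others, where chance gives about 1 in 20. AASS in breast control 5 was at 10.8 scaled FPKM, above the other controls at 7.88 to 8.48, and the gap took 0.792 of the range of the group. IVD in breast control 3 was at 7.41, below the other controls, with a gap of 0.818 of the range. DBT in liver deficient 2 was at 47.8, above the other deficient liver libraries, with a gap of 0.734. The limit for 5 libraries is 0.71.

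The test of the tissue difference in diet effect called 3 of 26 further pathway genes, near the 9.22% called over all genes, with the breast effect the higher. The liver effect minus the breast effect was -0.72 for DLD, -0.79 for ACADSB and -1.0 for HIBADH (limma adjusted p = 0.0287, 0.0445 and 0.0433). These calls were lost in 5, 14 and 13 of 20 fits that left out 1 library, and without scaling (adjusted p = 0.134, 0.139 and 0.0854). In breast muscle all 5 deficient libraries lay above all 5 controls for each of them, as for 9.93% of all genes, and in liver the groups overlapped. The test that picked these 3 genes used the same values, so this adds no separate support.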

How the results depend on the processing

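For the 8 genes, 1144 of 1192 values under alternatives kept their side of the threshold, 11 of them changing sign uncalled. Isoform sums repeat the main fit and could not move. A call was lost by 23 and gained by 24. In breast muscle DBT lost its call in 7 of 10 left-out fits and 7 of 13 others, and MCCC1 changed sign without scaling (-0.047). For the other pathway genes, 95 of 2658 lost a call and 18 gained one. In breast muscle 2 of the 8 genes and 4 of the 26 others were called without scaling. Over all genes 3522 of 10223 were called at that setting, 9.14% of them higher. Of 2854 called in the main breast fit 50.5% were higher, and 63.1% of 2078 with a filter at 5 FPKM. Leaving out 1 library gave 1835 to 3158 genes, the fewest without breast control 2, with 5 to 6 of the 8 genes and 8 to 15 of the others.

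In liver the count was 0 in the main analysis, 2 without a filter and 1 with a filter at 5 FPKM, and 0 to 11 with a library left out, 11 without liver control 3. For the tissue difference in diet effect, 843 genes were called, against 1871 without scaling and 555 with a filter at 5 FPKM. The replicate block, which here joins control and deficient libraries by number and not the tissues, gave 552. There were 568 without liver control 4 and liver deficient 1 together, and 456 to 1133 with a library left out. Of the 843 calls 56.8% were positive, against 96.2% of those without scaling and 45.9% with the filter at 5. Of the 8 genes 1 was called with a pseudocount of 0.1 and with the filter at 5, 2 with library weights and 0 to 2 with a library left out. Over all genes the pseudocount, the filter and the weights called 830 of 9142, 555 of 4810 and 1138 of 9142. Of the 26 others 1 was called without scaling and without a filter, 0 with quantile normalization and without both those liver libraries, and 0 to 5 with a library left out. Over all genes 971 of 14339 were called without a filter and 744 of 9178 with quantile normalization. For tissue levels the filter at 5 FPKM, which tests fewer genes, gave 4930 called genes on the control diet and 5194 on the deficient diet. Without scaling 39.9% of the control diet calls were higher in liver, against 51.4%.

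The replicate numbers were not taken as pairs, since the labels give no pairing. Not every pair correlated over 0.1 either, which does not show that the libraries are unpaired. The main fits over both tissues thus treat the 20 libraries as independent, which would not hold if 1 bird gave both tissues. Deviations of same-numbered libraries correlated between -0.20 and 0.09 across diets. Across tissues the correlations were all positive, between 0.01 and 0.21. There 7 of 10 control and 8 of 10 deficient libraries correlated best with their own number. This is a hint that same-numbered libraries share a bird, which the labels do not state. With the replicate block 3 of the 8 genes (AASS, BCKDHB and HIBCH) and 8 of the others were called in breast muscle, and 2076 genes in all. The tissue difference in diet effect of KLF15, -1.08, was called with the block across diets (limma adjusted p = 0.0466). The block across diets joins libraries of different birds by number, so that call adds no support. DBT between tissues on the deficient diet was called with the block across tissues (limma adjusted p = 0.0308). For the subunit ratios the block cannot change the mean difference, and an exact sign-flip test over 5 pairs cannot go below p = 0.0625, so it could not give a call.

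With a library left out, the log2 change of BCKDHB to DBT lay between 0.50 and 0.75 in breast muscle and 0.34 and 0.48 in liver, that of MCCC1 to MCCC2 between -0.44 and -0.29 and between -0.08 and 0.01, and that of PCCA to PCCB between -0.19 and 0.04 and between 0.23 and 0.49. Ratios with BCKDHA or BCKDK were not run, since neither was found by symbol. The cause of these shifts was not tested. Depth in reads is unknown, so limits set by counting could not be given, and the widest of the authors' intervals, for PCCA, bound the precision of a single library.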

Other observations

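KLF15, a transcription factor that in mouse drives branched-chain amino acid breakdown, was singled out after its values were seen. In liver it measured 23.6, 44.7, 18.0, 29.5 and 27.2 scaled FPKM in controls 1 to 5 and 8.13, 14.8, 7.61, 16.7 and 13.0 in deficient libraries. All deficient libraries lay below all controls, with means of 28.6 ± 9.99 and 12.0 ± 4.03 (SD, n = 5 each). The share of all liver genes separated this way was not counted, and 8.34% had a limma unadjusted p under 0.05. The log2 difference was -1.16 with a 95% interval from -1.74 to -0.58 (limma unadjusted p = 0.00107), and it did not pass the adjustment (adjusted p = 0.269). With a library left out it lay between -1.31 and -0.99, negative each time. In breast muscle KLF15 was at 9.42 ± 3.60 and 9.10 ± 3.78 (SD, n = 5 each), a log2 difference of -0.08. The difference in diet effect between the tissues was -1.08 (limma adjusted p = 0.0938). With the replicate block across diets it crossed the threshold (limma adjusted p = 0.0466). That block joins control and deficient libraries by number, which are different birds, so this adds no support.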
